A study of Mus musculus with 6 samples.

Results

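Apolipoprotein and lipid efflux genes were followed in cultured mouse neural stem cells: 10 genes, taken by name from the 27372 genes of a deposited count table. They comprise the lipid carriers Apoe, Clu and Apod, the efflux transporters Abca1 and Abcg1, the lipase Lpl, the receptor Lrp1, the nuclear receptors Nr1h3 and Nr1h2, and the ubiquitin ligase Mylip. RNA sequencing covered 3 libraries labelled as a Sirt6 knockout, from conditional Sirt6 knockout mice, and 3 control libraries from wild-type mice. Both groups were postnatal day 7 cells grown as neurospheres; their DMEM/F12 medium held 2% B27, 0.2% BSA and 20 ng/ml each of bFGF and EGF, and RNA was extracted on day 7 of culture. The sources used here do not give the Cre driver, the strain or the exons removed. Whether replicates are different animals or cultures is not stated, so the p-values below reflect the spread among these libraries, which may in part be technical.

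In brain, astrocytes secrete cholesterol and phospholipid on apolipoprotein E particles, which neurons and other glia take up through endocytic lipoprotein receptors. Abca1 and Abcg1 move the lipid out of the cell onto these particles. The liver X receptors, encoded by Nr1h3 (LXR alpha) and Nr1h2 (LXR beta), sense oxysterols and switch on Abca1, Abcg1, Apoe and Mylip. Mylip, also called IDOL, marks lipoprotein receptors for degradation.

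Sirt6, the targeted gene, was higher in the libraries labelled knockout (474, 492 and 442 counts) than in the controls (380, 293 and 260 counts), with no overlap (edgeR log2 fold change 0.61 ± 0.19, SE; unadjusted p = 0.0146, adjusted p = 0.998). The counts cover the whole gene, so they do not tell whether an exon was removed, and directions below are those of the labelled libraries and not of Sirt6 loss. Library totals ran from 17198852 to 18297275 counts. The summed level of 4 Y-linked genes was 0.755, 0.12 and 0 CPM (counts scaled by effective library size) in the libraries labelled knockout 1 to 3, against 67.5, 234 and 0 CPM in controls 1 to 3, so the controls differed among themselves in sex-linked transcripts and were not repeat libraries of a single sample. Neural stem cell markers such as Nes, Sox2 and Fabp7 were well above detection in both groups: the summed level of 10 markers was 6640, 7970 and 6360 CPM in the libraries labelled knockout and 7900, 7200 and 5900 CPM in the controls.

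The start-site regions of Abca1, Apoe and Mylip are shown because these are LXR targets at very different levels in these cells. Sequences are from RefSeq (GRCm38.p6), which held an entry for 7 of the 10 members, and run 250 bases upstream to 50 bases downstream of the transcription start, on the gene's own strand. Capitals mark TATAAA (searched on both strands) and a DR4 arrangement, which is a direct repeat of the hexamer AGGTCA with 4 bases between the copies and is the known binding pattern of LXR with RXR. The regions are chr4:53159846-53160145 (minus strand) for Abca1, chr7:19699139-19699438 (minus strand) for Apoe and chr13:45389492-45389791 (plus strand) for Mylip.
Abca1: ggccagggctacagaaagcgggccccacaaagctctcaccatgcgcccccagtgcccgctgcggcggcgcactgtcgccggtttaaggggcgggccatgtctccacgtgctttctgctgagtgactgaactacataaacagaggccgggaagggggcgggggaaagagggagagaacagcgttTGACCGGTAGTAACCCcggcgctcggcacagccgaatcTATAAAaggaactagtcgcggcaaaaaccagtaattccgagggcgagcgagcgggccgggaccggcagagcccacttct
Apoe: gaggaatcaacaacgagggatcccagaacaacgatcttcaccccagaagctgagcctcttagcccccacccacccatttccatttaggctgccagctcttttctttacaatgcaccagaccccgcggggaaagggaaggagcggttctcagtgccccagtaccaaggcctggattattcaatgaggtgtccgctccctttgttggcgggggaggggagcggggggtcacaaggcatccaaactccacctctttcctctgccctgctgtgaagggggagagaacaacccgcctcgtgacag
Mylip: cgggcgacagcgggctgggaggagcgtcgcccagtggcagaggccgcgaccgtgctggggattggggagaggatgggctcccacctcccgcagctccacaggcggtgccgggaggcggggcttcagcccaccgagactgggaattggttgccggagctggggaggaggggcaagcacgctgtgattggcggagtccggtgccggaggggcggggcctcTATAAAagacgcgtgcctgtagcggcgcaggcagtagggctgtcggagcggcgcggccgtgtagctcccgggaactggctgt
With at most 1 mismatch in each hexamer, no window of the 7 members held a DR4 match, and 1.75% of 32817 mouse promoter windows of this length did. With up to 2 mismatches in a hexamer and 3 in all, a looser setting chosen after the sequences were read, the Abca1 window held 1 match, at positions -67 to -52 from the start and on the opposite strand, and 18.8% of all windows held one. The Abca1 promoter is known for an LXR element of this type. TATAAA lay at -29 to -24 in Abca1 and at -32 to -27 in Mylip, against 13.6% of all windows with a match. The Apoe window shown held neither; a second annotated Apoe start, not shown, had TATAAA in its window. LXR acts on Apoe from enhancers downstream of the gene, outside this window. A match is a description of letters and not of binding.

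Levels per transcript length set the members far apart. Scaled by the summed length of annotated exons, Apoe was the highest member in every library, at 2400, 2010 and 6030 CPM per kb in the libraries labelled knockout and 1650, 550 and 3460 CPM per kb in the controls. It ranked 5, 8 and 3 among all genes of the table per length in the libraries labelled knockout, and 9, 25 and 5 in the controls. Its lowest library, 550 CPM per kb, was still above the highest value of Clu, 140 CPM per kb. Clu (20.2 to 140 CPM per kb over the 6 libraries), Lrp1 (51.8 to 73.2) and Abca1 (15.1 to 81.7) overlapped one another. Nr1h2 (16.6 to 20.7 CPM per kb) lay below Abca1 in all libraries except control 2. A wide gap followed, and Lpl (0.41 to 1.4 CPM per kb), Nr1h3 (0.343 to 0.957), Abcg1 (0.173 to 0.998) and Mylip (0.231 to 0.451) overlapped one another at the low end. Apod, at 0 to 0.133 CPM per kb, lay below all of them.

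**Figure D1:**
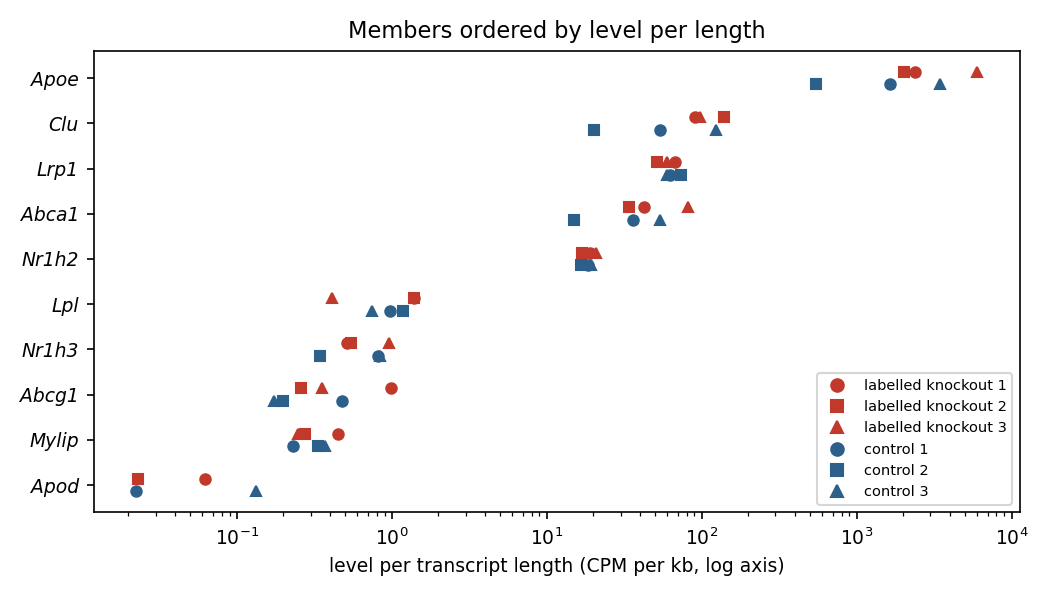
Level of each of the 10 members per exon length (CPM per kb, log axis), 1 point per library, red for libraries labelled knockout and blue for controls. Apoe spans 550 to 6030 CPM per kb, above all other members, and Apod is at the bottom; its 2 libraries with 0 counts cannot be drawn on a log axis.

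The LXR genes differed from each other in level, and so did Abca1 and Abcg1. Per length, Nr1h2 exceeded Nr1h3 by 37.1-, 30.9- and 21.6-fold in the libraries labelled knockout, and by 22.5-, 48.4- and 23.0-fold in the controls. LXR beta was thus the main LXR transcript in each library. Abca1 exceeded Abcg1 by 42.9- to 231-fold in the libraries labelled knockout and by 75.3- to 314-fold in the controls.

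None of the 9 members that could be tested passed the test between the groups when replicate numbers were left out of the fit. In edgeR's quasi-likelihood test over 15087 genes, 0 of the 9 passed an adjusted p of 0.05 in either direction (0% of all genes higher and 0% lower), and 0 had an unadjusted p under 0.05, against 1.98% of all genes higher and 1.5% lower. Limma-voom called 0 members and 0 genes, and 0 members had an unadjusted p under 0.05, against 2.02% of genes higher and 1.59% lower. DESeq2 called 0 of 10 members, against 0.011% of 27368 genes higher and 0.00731% lower, and 0 members had an unadjusted p under 0.05, against 1.29% higher and 1.3% lower. The groups lay apart in 0 of the 9, whereas they lay apart in 4.88% of the genes tested with the knockout label on top and in 3.73% with the control on top. Of the 9, 8 had a positive log2 fold change (50% of all genes did) and the median was 0.15, against 0 over all genes tested. Apod was below the count filter.

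Libraries with the same replicate number resembled each other across genes, and the numbers were therefore also used as a block, which compares within pairs. The pairs were not matched in sex-linked transcripts: in pairs 1 and 2 the Y-linked genes were well above 0 in the control only. The X-linked RNA Xist was at 3390, 3090 and 2270 CPM in the libraries labelled knockout 1 to 3. It was at 1850, 0.485 and 2070 CPM in controls 1 to 3. In pairs 1 and 2 these differences ran with the label, and their part in the blocked results was not tested. DESeq2 with the block called 2 members higher in the libraries labelled knockout, Apoe and Abca1, out of 8 with an adjusted p. It called 1.17% of 13044 genes higher and 2.39% lower. At an unadjusted p under 0.05 the same 2 members were higher, against 4.91% of genes, and 0 lower, against 6.1%. EdgeR with the block called 0 members and 0 genes, and 3 members (Apoe, Abca1 and Abcg1) had an unadjusted p under 0.05 and were higher, against 5.69% of all genes, with 0 lower, against 6.77%. Apoe, Abca1, Abcg1 and Nr1h2 were higher in 3 of 3 same-numbered pairs, which held for 18% of the genes tested, and 0 of the 9 members were lower in 3 of 3, which also held for 18% of the genes tested.

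**Figure D2:**
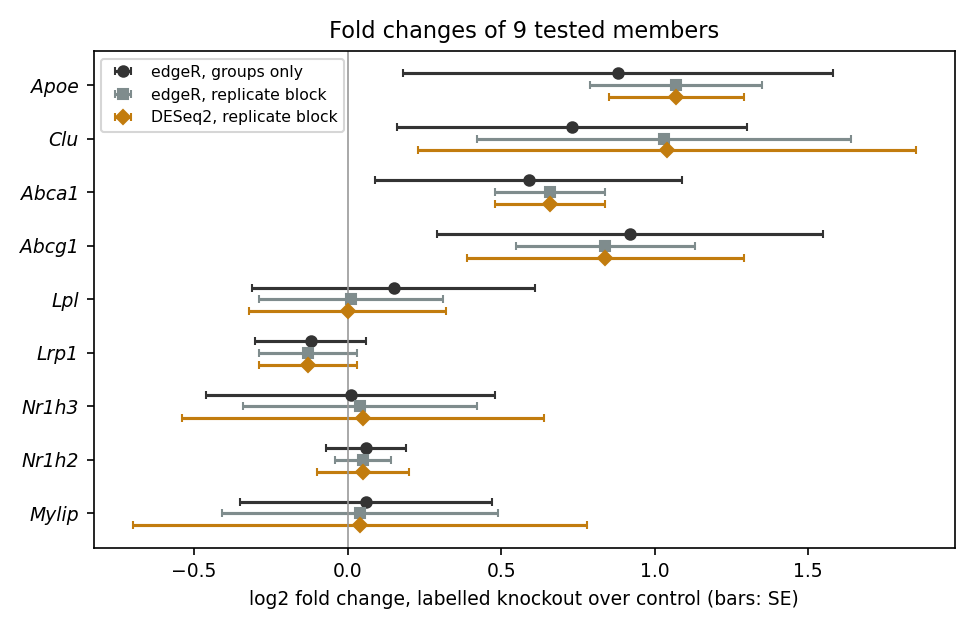
Log2 fold change of the 9 tested members, libraries labelled knockout over controls, with bars for the standard error, from edgeR without a block, edgeR with the replicate block and DESeq2 with the block. The estimates for Apoe, Clu, Abca1 and Abcg1 lie above 0 and the bars of Apoe and Abca1 shorten with the block.

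Apoe (ENSMUSG00000002985, chr7:19696109-19699188, minus strand, mm10), the main lipid carrier of brain, had 95268, 72009 and 224992 counts in the libraries labelled knockout, against 61472, 21846 and 129132 counts in the controls. This corresponds to 5140, 4300 and 12900 CPM in the libraries labelled knockout and 3540, 1180 and 7390 CPM in the controls. The groups overlapped: control 3 stood above the libraries labelled knockout 1 and 2, control 2 was the lowest of all, and the library labelled knockout 3 was the highest. Apoe averaged 7450 ± 4740 CPM in the libraries labelled knockout and 4030 ± 3140 CPM in the controls (SD, n = 3 each). The log2 fold change was 0.88 ± 0.70 (SE; edgeR adjusted p = 0.998). Within pairs 1, 2 and 3 the library labelled knockout was higher by 0.54, 1.87 and 0.80 on the log2 scale. With the block the log2 fold change was 1.07 ± 0.22 (SE) by DESeq2 (adjusted p = 0.000236) and 1.07 ± 0.28 by edgeR (adjusted p = 0.222). DESeq2 with the block kept its call of Apoe without any 1 of the pairs, at log2 fold changes of 0.68 to 1.33, a set of fits chosen after seeing the data. Few libraries remain in such fits to estimate the spread, and edgeR with the block called 0 genes even with all 6 libraries. The repeated calls therefore do not show that the result is stable.

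The unblocked value for Apoe rested on single libraries. It was 0.22 when the library labelled knockout 3 was left out, 0.45 without control 2 and 1.66 without control 3. Against control 3 alone, with both controls that held Y-linked reads left out, it was 0.01 ± 0.71 (SE; edgeR adjusted p = 1), a fit in which the spread comes from the libraries labelled knockout only. Control 2, the library lowest in Apoe, also had the highest Y-linked level. The part of that difference in the result was not tested.

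Clu, which encodes clusterin (apolipoprotein J), a secreted chaperone and lipid carrier of astrocytes, is ENSMUSG00000022037 and lies on chr14:65968483-65981547. Its level was 314, 482 and 337 CPM in the libraries labelled knockout and 187, 69.5 and 425 CPM in the controls. The libraries labelled knockout were close together, while the controls spread 6.12-fold and reached into the other group. The log2 fold change was 0.73 ± 0.57 (SE; edgeR adjusted p = 0.998), and the pairs differed by 0.75, 2.79 and -0.33. It was 0.30 without control 2 and 1.56 without control 3.

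Apod (ENSMUSG00000022548, chr16:31296192-31314808, minus strand), a lipocalin carrier known from oligodendrocytes and fibroblast-like cells, was near the limit of detection. It had 3, 1 and 0 counts in the libraries labelled knockout and 1, 0 and 6 in the controls. A count of 0 allows up to 3 counts, or 0.172 CPM in the library labelled knockout 3 and 0.161 CPM in control 2, for counting error only. Fitted without the count filter, it was called neither by DESeq2 (unadjusted p = 0.672) nor by edgeR (unadjusted p = 0.603).

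Abca1 (ENSMUSG00000015243, chr4:53030787-53159895, minus strand), which loads cholesterol and phospholipid onto lipid-poor apolipoproteins, had 8221, 5876 and 14771 counts in the libraries labelled knockout and 6514, 2906 and 9826 in the controls. Its level was 444, 351 and 846 CPM in the libraries labelled knockout and 375, 156 and 562 CPM in the controls. As for Apoe, control 2 was the lowest, the library labelled knockout 3 the highest and control 3 the next highest. Abca1 averaged 547 ± 263 CPM in the libraries labelled knockout and 365 ± 203 CPM in the controls (SD, n = 3 each). The log2 fold change was 0.59 ± 0.50 (SE; edgeR adjusted p = 0.998), and it was 0.12 when the library labelled knockout 3 was left out, 0.22 without control 2, 1.05 without control 3 and -0.04 against control 3 alone. Within pairs it was higher by 0.24, 1.17 and 0.59. With the block the log2 fold change was 0.66 ± 0.18 (SE) by DESeq2 (adjusted p = 0.014), while edgeR with the block gave an adjusted p of 0.238. This call was lost without pair 2 (0.42, adjusted p = 0.137 by DESeq2) and without pair 3 (0.70, adjusted p = 0.188 by DESeq2).

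Abcg1 (ENSMUSG00000024030, chr17:31057698-31115777), which passes cholesterol on to lipid-bearing particles, was rare, with 135, 32 and 45 counts in the libraries labelled knockout and 61, 27 and 22 in the controls. Its level was 7.28, 1.91 and 2.58 CPM in the libraries labelled knockout and 3.51, 1.45 and 1.26 CPM in the controls. It did not share the profile of Abca1: the library labelled knockout 1 was highest, control 1 came next, and the other 4 lay between 1.26 and 2.58 CPM. The log2 fold change was 0.92 ± 0.63 (SE; edgeR adjusted p = 0.998), the largest of the 9 in this fit, and 0.12 when the library labelled knockout 1 was left out or 1.53 without control 1. With the block it was 0.84 ± 0.29 by edgeR (adjusted p = 0.326).

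Lpl, lipoprotein lipase (ENSMUSG00000015568, chr8:68880491-68907448), which releases fatty acids from lipoproteins, stood at 14.7, 14.6 and 4.3 CPM in the libraries labelled knockout and 10.2, 12.3 and 7.78 CPM in the controls. The library labelled knockout 3, highest for Apoe and Abca1, was the lowest for Lpl, and the groups overlapped (log2 fold change 0.15 ± 0.46, SE; edgeR adjusted p = 0.998). Lrp1 (ENSMUSG00000040249, chr10:127538161-127621148, minus strand), a large endocytic receptor for apolipoprotein E, was even, at 1200, 917 and 1060 CPM in the libraries labelled knockout and 1110, 1300 and 1050 CPM in the controls. Its log2 fold change of -0.12 ± 0.18 (SE; edgeR adjusted p = 0.998) was the only negative one among the 9 in this fit.

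The LXR genes passed the test in none of the fits run with all 6 libraries. Nr1h2 (ENSMUSG00000060601, chr7:44549616-44553951, minus strand) stood at 63.9, 56.5 and 69.5 CPM in the libraries labelled knockout and 61.9, 55.6 and 65.2 CPM in the controls, the narrowest range of the 9 (log2 fold change 0.06 ± 0.13, SE; edgeR adjusted p = 0.998). Its libraries ran in the same order as those of Abca1, over a 1.25-fold range against 5.41-fold for Abca1. Nr1h3 (ENSMUSG00000002108, chr2:91184061-91202834, minus strand) had 24, 23 and 42 counts in the libraries labelled knockout and 36, 16 and 37 in the controls (log2 fold change 0.01 ± 0.47, SE; edgeR adjusted p = 0.999). Mylip (ENSMUSG00000038175, chr13:45389742-45412022) had 27, 15 and 14 counts in the libraries labelled knockout and 13, 20 and 21 in the controls (log2 fold change 0.06 ± 0.41, SE; edgeR adjusted p = 0.998). In these libraries 1 CPM stands for 16.7 to 18.6 counts. No other gene of the annotation shared more than 34 exon bases with any member, and the overlapping genes in the table averaged at most 0.131 CPM.

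**Figure D3:**
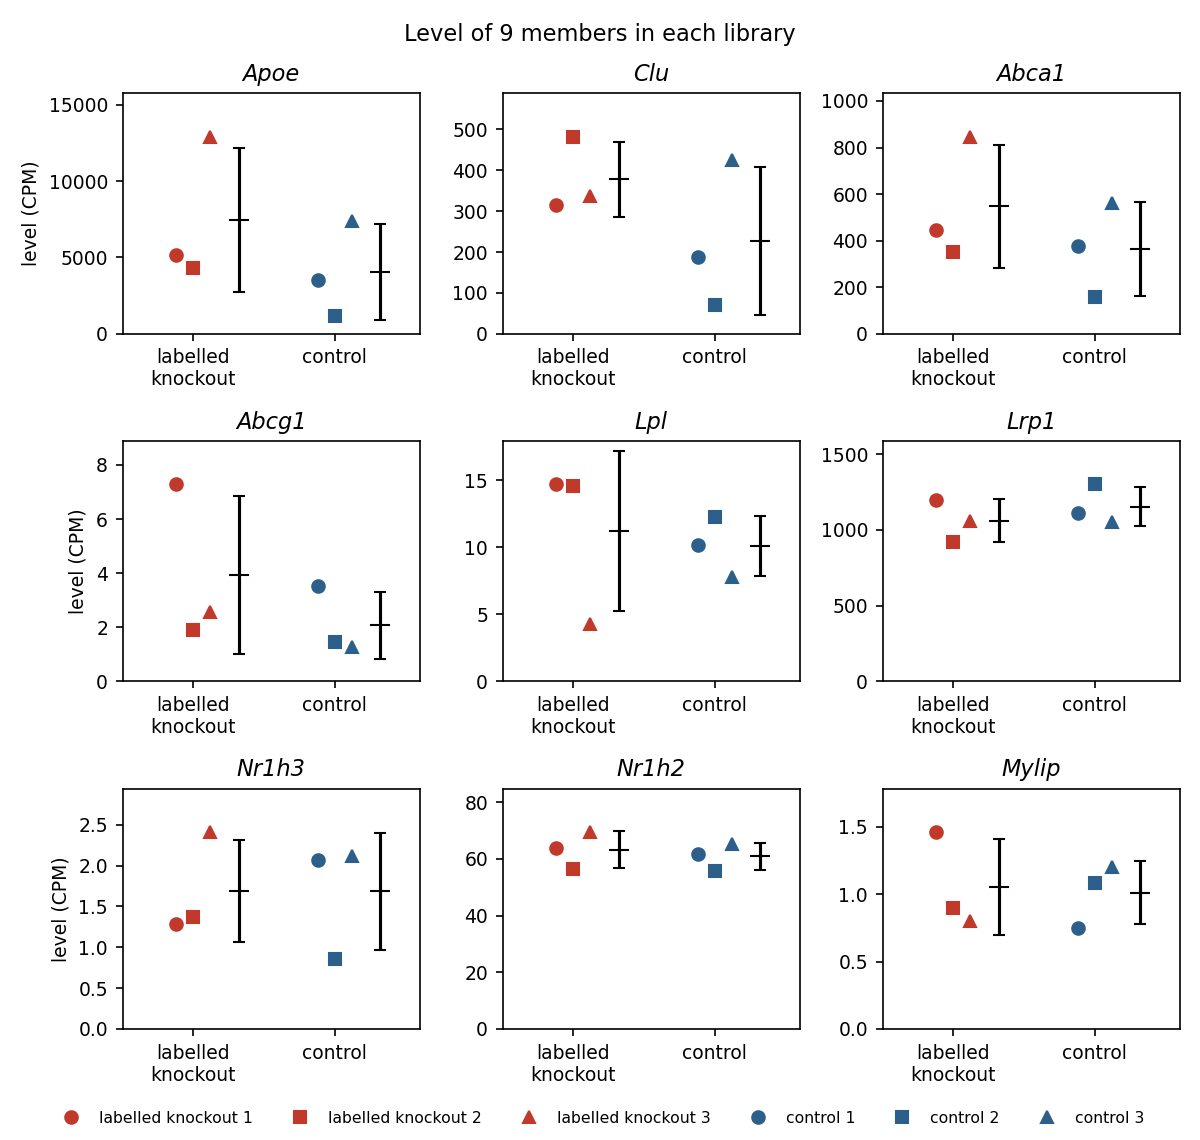
Level of the 9 tested members in each library (CPM, linear axes from 0), libraries labelled knockout left and controls right, with the mean and SD (n = 3) as black bars; shapes give the replicate number. The groups overlap in all 9 panels; Apoe ranges from 1180 to 12900 CPM while Nr1h2 stays between 55.6 and 69.5 CPM.

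Apoe, Clu and Abca1 were among the more variable genes of the table within groups. The within-group SD of log2 CPM was 1.12 for Apoe, 0.95 for Clu and 0.81 for Abca1, against a median of 0.28 over 15087 genes. The SD of Clu was larger than that of 99.4% of the 1625 tested genes within 1 log2 unit of its mean level, and that of Abca1 larger than that of 97.9% of 846 such genes. Apoe had only 9 such genes, all with a smaller SD. Lrp1 (0.18) and Nr1h2 (0.13) lay below the median.

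The members fell into different profiles over the 6 libraries. Likeness was measured as the mean absolute difference between log2 CPM profiles after subtraction of each gene's mean, a description over 6 libraries that share their scaling. Abca1 was 0.28 from Apoe, with 20 of 15085 other tested genes (0.133%) nearer, and Clu was 0.40 away, with 104 (0.689%) nearer. Nr1h3 (0.62) and Nr1h2 (0.72) were farther, and Abcg1 (1.12) and Lpl (1.24) were farther from Apoe than 89.2% and 93.8% of the genes. Among the 5 nearest genes with at least 10 CPM were Ndrg2 (0.13), a gene abundant in astrocytes, Pygb (0.16), the brain form of glycogen phosphorylase, Aqp4 (0.17), the water channel of astrocyte endfeet and also one of the astrocyte markers used below and C4b (0.22), a complement component. The median over 9676 candidates was 0.81. Ndrg2, for instance, stood at 361, 306 and 1020 CPM in the libraries labelled knockout and 254, 113 and 536 CPM in the controls. Among the 5 nearest to Abcg1 were Srebf1 (0.27), an LXR target that encodes a regulator of lipid synthesis, Efr3b (0.27) and Jcad (0.28).

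**Figure D4:**
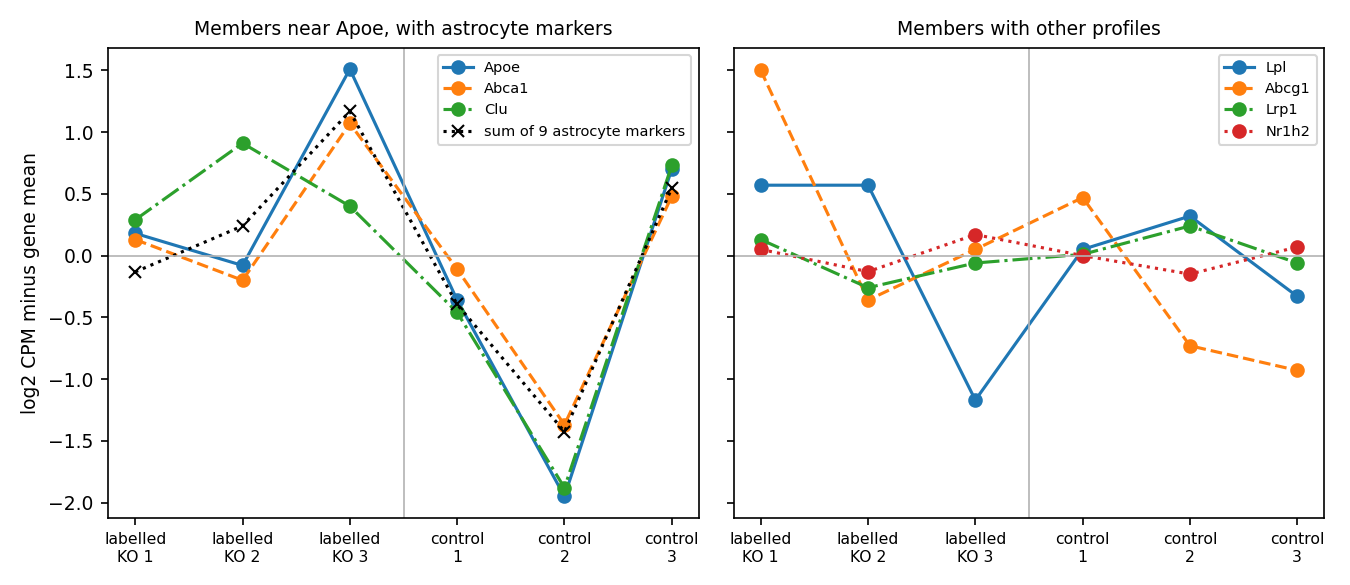
Log2 CPM minus each gene's mean over the 6 libraries, with the libraries labelled knockout (KO) left of the controls. On the left Apoe, Abca1 and Clu are drawn with the summed level of 9 astrocyte markers, all lowest in control 2. On the right are Lpl, Abcg1, Lrp1 and Nr1h2. The first 3 of these run in other library orders, while Nr1h2 keeps the order of Abca1 over a much smaller range.

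Astrocyte markers moved with Apoe and Abca1, and less closely with Clu. The summed level of 9 markers (Gfap, Aqp4, Aldh1l1, S100b, Gja1, Slc1a2, Aldoc, Gjb6 and Agt) was 2820, 3650 and 6940 CPM in the libraries labelled knockout and 2350, 1150 and 4510 CPM in the controls. All 8 tested markers had positive log2 fold changes, with a median of 0.69, and edgeR called 0, with 2 (Gfap and Agt) at an unadjusted p under 0.05. Gfap, the astrocyte intermediate filament, averaged 708 ± 417 CPM in the libraries labelled knockout and 175 ± 110 CPM in the controls (SD, n = 3 each), with no overlap. All 9 were detected, Gjb6 at a mean of 0.489 CPM. In bulk RNA fewer cells of a type and less RNA per cell cannot be told apart. Set against the marker sum of the same library, Apoe was at 1.83, 1.18 and 1.86 in the libraries labelled knockout and 1.5, 1.02 and 1.64 in the controls, a 1.82-fold range where Apoe itself spanned 11.0-fold. The ratio averaged 1.62 ± 0.383 in the libraries labelled knockout and 1.39 ± 0.324 in the controls (SD, n = 3 each), and the groups overlapped. It was higher in the library labelled knockout in 3 of 3 pairs, by 0.323, 0.16 and 0.227. For Abca1 the ratio was 0.125 ± 0.0307 in the libraries labelled knockout and 0.14 ± 0.0178 in the controls (SD, n = 3 each), with 0 of 3 pairs higher and pair differences of -0.00172, -0.0395 and -0.00218. The ratio of Clu ran from 0.0487 to 0.132 in the libraries labelled knockout and from 0.0604 to 0.0941 in the controls, with 2 of 3 pairs higher. Exact two-sided permutation tests on these ratios cannot go below p = 0.10 between groups or p = 0.25 within pairs, so they cannot show whether the ratios differ. These 3 ratios were chosen after seeing the data.

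Other cell types that make these transcripts in brain were also checked. Of 10 microglia and macrophage markers, 7 were measured, each below 1 CPM, and they summed to 0.162, 0.179 and 0.745 CPM in the libraries labelled knockout and 0.23, 0.377 and 0.172 CPM in the controls; Tmem119, C1qa and Itgam were not analysed here. Macrophage-lineage markers were thus near 0 in libraries where Apoe stood at 1180 CPM or more. Pericyte and fibroblast markers summed to 0.917 to 2.03 CPM in the libraries labelled knockout and 0.915 to 1.43 CPM in the controls, and endothelial markers to 1.94 to 4.66 CPM in the libraries labelled knockout and 2.7 to 3.66 CPM in the controls, with Cldn5 not analysed here. Choroid plexus and ependymal markers summed to 23.6 to 44.8 CPM in the libraries labelled knockout and 15 to 61.4 CPM in the controls, nearly all of it Foxj1. Of 6 oligodendrocyte markers 5 could be tested, all with positive log2 fold changes and a median of 1.34. EdgeR called 0 of them, with 3 (Mbp, Cnp and Myrf) higher at an unadjusted p under 0.05, against 1.98% of all genes. The 6 summed to 813, 681 and 987 CPM in the libraries labelled knockout and 357, 251 and 514 CPM in the controls. The groups did not overlap in this sum. Oligodendrocyte progenitor markers summed to 2990 to 3290 CPM in the libraries labelled knockout and 3400 to 4740 CPM in the controls, with 3 of 6 higher and 3 lower. Neuron markers summed to 67.5 to 206 CPM in the libraries labelled knockout and 45.3 to 81.1 CPM in the controls, with 3 of 5 higher. The part of these cell types, or of astrocytes, in the members' levels was not tested.

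The rest of the pathway was described with 6 lists of 70 genes in all, of which 55 could be tested by edgeR. EdgeR called 0 of them and 0% of all genes. At an unadjusted p under 0.05, 2 were higher and 1 lower, against 1.98% of all genes higher and 1.5% lower. Limma-voom and edgeR with the block called 0 of the 55, and DESeq2 called 0 of the 65 it fitted. DESeq2 with the block called 3 of the 51 with an adjusted p, against 1.17% of 13044 genes higher and 2.39% lower. Of the 55, 34 had positive and 21 negative log2 fold changes, with a median of 0.06.

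Among 10 other LXR targets that could be tested, 6 were higher and 4 lower, with a median log2 fold change of 0.04. Scd2, the stearoyl-CoA desaturase of brain, stood at 5490 ± 1230 CPM in the libraries labelled knockout and 5410 ± 450 CPM in the controls (SD, n = 3 each). Fasn, fatty acid synthase, was at 831 ± 107 CPM in the libraries labelled knockout and 1140 ± 258 CPM in the controls (SD, n = 3 each), lower within each pair. It was called lower only by DESeq2 with the block among the 5 fits compared (log2 fold change -0.44 ± 0.14, SE; adjusted p = 0.0495), and the call was lost without pair 1 or pair 3. Srebf1, near Abcg1 in profile, stood at 74.1, 35.3 and 51.5 CPM in the libraries labelled knockout and 75.5, 28.1 and 30.6 CPM in the controls. Among LXR partners and coregulators, 5 of 7 were higher and 2 lower (median 0.06). The corepressor Ncor1 was the most abundant, at 428 ± 16.1 CPM in the libraries labelled knockout and 412 ± 11.6 CPM in the controls (SD, n = 3 each).

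Of the lipoprotein receptor family and its regulators, 8 of 15 were higher and 7 lower (median 0.04). Vldlr, the VLDL receptor, stood at 149 ± 62.4 CPM in the libraries labelled knockout and 121 ± 28.9 CPM in the controls, and Lrp4, a receptor of the same family, at 128 ± 39.3 CPM in the libraries labelled knockout and 93.4 ± 28.1 CPM in the controls (SD, n = 3 each).

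Other lipid export and cholesterol handling genes were split, 8 higher and 7 lower of 15 (median 0.02). Npc1, which exports cholesterol from lysosomes, stood at 288 ± 55.4 CPM in the libraries labelled knockout and 247 ± 27.6 CPM in the controls (SD, n = 3 each). Abca2, a transporter of lysosomal membranes, stood at 258 ± 69.0 CPM in the libraries labelled knockout and 262 ± 96.6 CPM in the controls (SD, n = 3 each). Soat1, which esterifies cholesterol for storage, was at 77.5 ± 2.88 CPM in the libraries labelled knockout, all above the controls at 61.0 ± 8.33 CPM (edgeR unadjusted p = 0.0329, adjusted p = 0.998). Other apolipoproteins were scarce: 8 of 11 were measured and 2 could be tested, Apoc1 with 7, 27 and 85 counts in the libraries labelled knockout and 26, 11 and 10 in the controls, and Apoh with 24, 19 and 18 against 8, 5 and 11 in the controls (edgeR unadjusted p = 0.017, adjusted p = 0.998).

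Of 6 tested genes for lipolysis and lipase maturation, 5 were higher and 1 lower (median 0.15). Sel1l, needed for Lpl to leave the endoplasmic reticulum, stood at 192 ± 2.97 CPM in the libraries labelled knockout and 210 ± 8.16 CPM in the controls, and Pnpla2, the adipose triglyceride lipase, at 47.7 ± 8.70 CPM in the libraries labelled knockout and 45.4 ± 21.8 CPM in the controls (SD, n = 3 each). Angptl4, a secreted inhibitor of lipoprotein lipase, had 10.2, 2.81 and 64.1 CPM in the libraries labelled knockout and 5.01, 1.08 and 11.6 CPM in the controls. It was highest in the library labelled knockout 3, where Lpl was lowest, and lowest in control 2. Within pairs it was higher by 1.01, 1.30 and 2.45 on the log2 scale. DESeq2 with the block called it higher (1.67 ± 0.32, SE; adjusted p = 5.13e-05), and edgeR without the block did not (2.12 ± 1.19, adjusted p = 0.998). With the block and without pair 3, DESeq2 called 0 genes of this list. Angptl4 and Soat1 were chosen after their values were seen.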

How the data were processed

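The authors deposited 1 table of raw whole-number counts per gene for 6 libraries, per the file headers and values; a line with no gene was left out. The submitters' processing notes list HISAT2 2.1.0, Bowtie2 2.2.3 and mm10 but no role for any of them. Counting tool, strand setting and annotation release: not given in the sources used here. The deposited table also holds the authors' mean scaled count (a signal), fold change (ratio), log2 ratio and p-values, control over knockout, which were not used for results.

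Groups come from titles. The test on these counts was edgeR 4.0.16, run in R 4.3.3 beside limma 3.58.1, with TMM, filterByExpr (minimum count 10, total 15), robust quasi-likelihood fits on group, Benjamini-Hochberg adjustment over all tested genes at 0.05, standard errors from F. CPM use TMM-scaled library sizes (factors 0.973 to 1.03), and log2 CPM a prior count of 2. Lengths are exon unions from GENCODE M21 (GRCm38), where 99.8% of gene IDs were found. Every library pair differed by more than counting noise (chi-square per degree of freedom at least 19.4). Scripts were tested on simulated data.

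Titles number the replicates alike in both groups. Deviations from the group mean, taken over genes, had a correlation of 0.43, 0.35 and 0.51 for libraries that share a number, and of -0.04 or below for the rest. For each gene the deviations within a group sum to 0, so positive same-number values push the rest below 0. The low values for the rest are therefore no separate support for the pairing. The numbers were treated as pairs and used as a block in alternative fits.

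Alternatives were DESeq2 1.42.0, limma-voom, RLE factors, total-count scaling, no filter, 1 CPM in 3 libraries, the replicate block with edgeR and DESeq2, each library left out, and control 3 alone. DESeq2 with the block without each pair was added after seeing the data. Members and lists were chosen with earlier results of these data known. Named were all members, Sirt6, and from each pathway list up to 4 genes past the threshold or, with none, the 2 most abundant. Also named were the 5 genes nearest in profile to Apoe and to the other member with the largest fold change. Some genes taken by this rule are not reported here.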

Additional observations from a re-analysis of the deposited data

How the results depend on the processing

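The median log2 fold change of the 9 members tested by edgeR was 0.15 as reported. Across 15 alternatives fixed at the outset and 3 added after seeing the data, it ran from -0.04 to 0.41. The lowest was against control 3 alone and the highest by DESeq2 with the block without pair 1. Apod was left out of these medians, also where DESeq2 fitted it, except in edgeR with no filter (0.11). Fits other than DESeq2 with the block called 0 members. Over all genes edgeR called 0; DESeq2 called 5, edgeR with no filter 1, DESeq2 with the replicate block 465 (153 higher, 312 lower), and DESeq2 with the block 128, 348 and 127 without pairs 1, 2 and 3. Leaving out 1 library gave 0 to 2 calls. Members called by DESeq2 with the block numbered 2, and 2, 1 and 1 without pairs 1, 2 and 3. Among the lists, DESeq2 with the block called 1 gene each among the lipoprotein receptor family, the other LXR targets and the lipolysis genes; without pair 1 it called 1 lipolysis gene, and without pair 2 it called 1 in each of these 3 lists and 1 in the cholesterol handling list.

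Apoe was past the threshold of DESeq2 with the block, at 1.07, and at 1.33, 0.68 and 1.20 without pairs 1, 2 and 3; Abca1 at 0.66, and at 0.87 without pair 1. The sign of small fold changes turned in several fits, and the cause was not tested. Lpl was -0.03 by limma-voom, 0 by DESeq2 with the block, and -0.29 and -0.14 by that fit without pairs 1 and 2. Mylip was -0.43 by that fit without pair 1, Nr1h3 -0.24 and -0.02 without pairs 2 and 3, and Lrp1 0.06 without pair 2. With 1 library left out, Lpl ranged from -0.09 to 0.54, Mylip from -0.25 to 0.23, Nr1h3 from -0.33 to 0.21 and Nr1h2 from -0.01 to 0.14. Against control 3 alone, Clu was -0.17, Abca1 -0.04, Lrp1 0, Nr1h3 -0.32, Nr1h2 -0.04 and Mylip -0.19. Counts were low for Apod, Mylip and Nr1h3, at most 42 per library; the spread between libraries limits detection as well, with a standard error of 0.70 for Apoe, 0.47 for Nr1h3 and 0.41 for Mylip.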
